A study of Rattus norvegicus with 9 samples.

Results

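The muscle miRNAs miR-1, miR-133 and miR-206, often called myomiRs, were followed through 9 small RNA libraries of neonatal rat cardiomyocytes in which the level of Yap had been changed by adenovirus. They were taken by name from the deposited table of 1422 miRNAs as the entries rno-miR-1-3p, rno-miR-1b, rno-miR-133a-3p, rno-miR-133a-5p, rno-miR-133b-3p and rno-miR-206-3p, and are written below without the rat prefix. All 6 members were present, and all 6 were among the 579 miRNAs that passed the filter on low counts. Because miR-1-3p and miR-1b are near copies, their sum is given as well, as is the sum of miR-133a-3p and miR-133b-3p.

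The cells were primary cardiomyocytes from the hearts of newborn Sprague Dawley rats, all grown in normal glucose and all collected 48 h after virus. The 3 control libraries (Ad-GFP) received a virus carrying green fluorescent protein and carry a wild-type genotype label. The 3 Ad-Yap WT libraries received a virus for overexpression of Yap, the co-activator that Hippo signalling restrains, and the 3 Ad-Yap shRNA libraries a virus for its knock-down. No virus with a non-targeting shRNA was among the groups, so lower Yap and the expression of an shRNA cannot be told apart. The labels do not say that replicates came from separate isolations, so p-values measure only how these libraries varied, which could be technical variation.

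miR-1 and miR-133a are processed from shared transcripts in heart and skeletal muscle, whose expression depends on muscle transcription factors such as Srf and Mef2. miR-206 and miR-133b come from another shared transcript that is known mainly from skeletal muscle. In mice, miR-1 limits the expansion of ventricular cardiomyocytes and represses Hand2, and miR-133a restrains cardiomyocyte proliferation and hypertrophic growth.

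The mature sequences are shown because they decide which entries could share reads and targets. They are taken from RefSeq (rat build GRCr8), which held all 6, and capitals mark the seed, bases 2 to 8, the main determinant of target choice. The first 3 share the seed GGAAUGU, which no other rat miRNA in the RefSeq table carries, and the next pair shares UUGGUCC in the same way.
miR-1-3p: uGGAAUGUaaagaaguguguau
miR-1b: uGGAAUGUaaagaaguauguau
miR-206-3p: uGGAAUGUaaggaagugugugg
miR-133a-3p: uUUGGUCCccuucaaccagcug
miR-133b-3p: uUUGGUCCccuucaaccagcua
miR-133a-5p: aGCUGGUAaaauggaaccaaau

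Counting from the 5′ end, miR-1-3p and miR-1b differ by 1 substitution, G17A, and miR-133a-3p and miR-133b-3p by 1, G22A, at the last base. miR-206-3p differs from miR-1-3p at 3 positions, A11G, A21G and U22G, all outside the seed. The handling of reads that match several of these is not stated, so the split within each near-identical pair is uncertain and the sums are firmer as to that split.

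The genes lie at 3 places in GRCr8. miR-1-3p (minus strand of chr18:2160339-2160360) and both arms of miR-133a (miR-133a-3p at chr18:2157886-2157907 and miR-133a-5p at chr18:2157923-2157944, minus strand) lie within the span of Mib1, with 2368 bases between their hairpins. miR-206-3p (plus strand of chr9:30590747-30590768) and miR-133b-3p (plus strand of chr9:30594629-30594650) lie within a long non-coding RNA gene, LOC120094648, with 3801 bases between the hairpins. miR-1b (plus strand of chr3:187864736-187864757) has no spanning gene in that annotation. In the Mir133a1 hairpin both arms, in capitals, can be seen on either side of the loop, miR-133a-5p first:
Mir133a1: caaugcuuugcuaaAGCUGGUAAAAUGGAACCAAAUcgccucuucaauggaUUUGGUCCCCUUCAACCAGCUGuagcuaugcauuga

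Libraries differed in depth by group. Summed miRNA counts ran from 3496284 to 3599483 reads in Ad-GFP, from 1931204 to 2948713 in Ad-Yap WT, and from 1482367 to 2094541 in Ad-Yap shRNA. The deposited RPM values (reads per 1e+06 reads of a library total) imply larger totals, of which miRNAs took 24.6 to 26.2%, 8.76 to 17.6% and 7.22 to 9.87% in the same order. Levels below are counts per 1e+06 miRNA reads (CPM) after TMM scaling, a factor per library that centres most miRNAs, which ran from 1.21 to 1.26 in Ad-GFP, 0.900 to 1.12 with Ad-Yap WT and 0.768 to 0.885 with Ad-Yap shRNA. Tests are edgeR quasi-likelihood tests over all 579 miRNAs, with Benjamini-Hochberg adjusted p-values and a threshold of 0.05. Because depth, miRNA share and scaling factor all move with the groups, the members' main differences are also given under other scalings. Ratios within a library, which need no factor per library, follow.

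The 6 members together took 5.06, 5.41 and 5.50% of the miRNA reads in the Ad-GFP libraries, 4.24, 3.41 and 3.93% in Ad-Yap WT and 6.31, 5.02 and 6.18% in Ad-Yap shRNA. Every Ad-Yap WT library held a smaller share than every other library, while Ad-Yap shRNA and Ad-GFP overlapped. A two-sided exact permutation test gave p = 0.1 for Ad-Yap WT against either group, the smallest that 3 libraries against 3 allow, and p = 0.4 for Ad-Yap shRNA against Ad-GFP. As a share of the deposited library totals the members took 1.35 ± 0.037% in Ad-GFP, 0.493 ± 0.23% with Ad-Yap WT and 0.485 ± 0.12% with Ad-Yap shRNA (SD, n = 3).

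All 6 mature miRNAs are 22 bases long, so their levels were compared directly, apart from differences in how well each ligates. The order of miR-1-3p and miR-1b, and the level of miR-133b-3p, also rest on the uncertain split within each near-identical pair. In Ad-GFP, miR-1-3p was highest at 17109 ± 1166 CPM, then miR-1b at 14787 ± 930 CPM and miR-133a-3p at 10984 ± 347 CPM (SD, n = 3). miR-133b-3p at 164 ± 34 CPM, miR-206-3p at 47.5 ± 3.6 CPM and miR-133a-5p at 38.4 ± 21 CPM were far lower. The libraries of neighbours in this order did not overlap, except those of miR-206-3p and miR-133a-5p. In Ad-Yap WT the order of the means was the same, whereas in Ad-Yap shRNA miR-133a-5p stood above miR-206-3p.

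**Figure D1:**
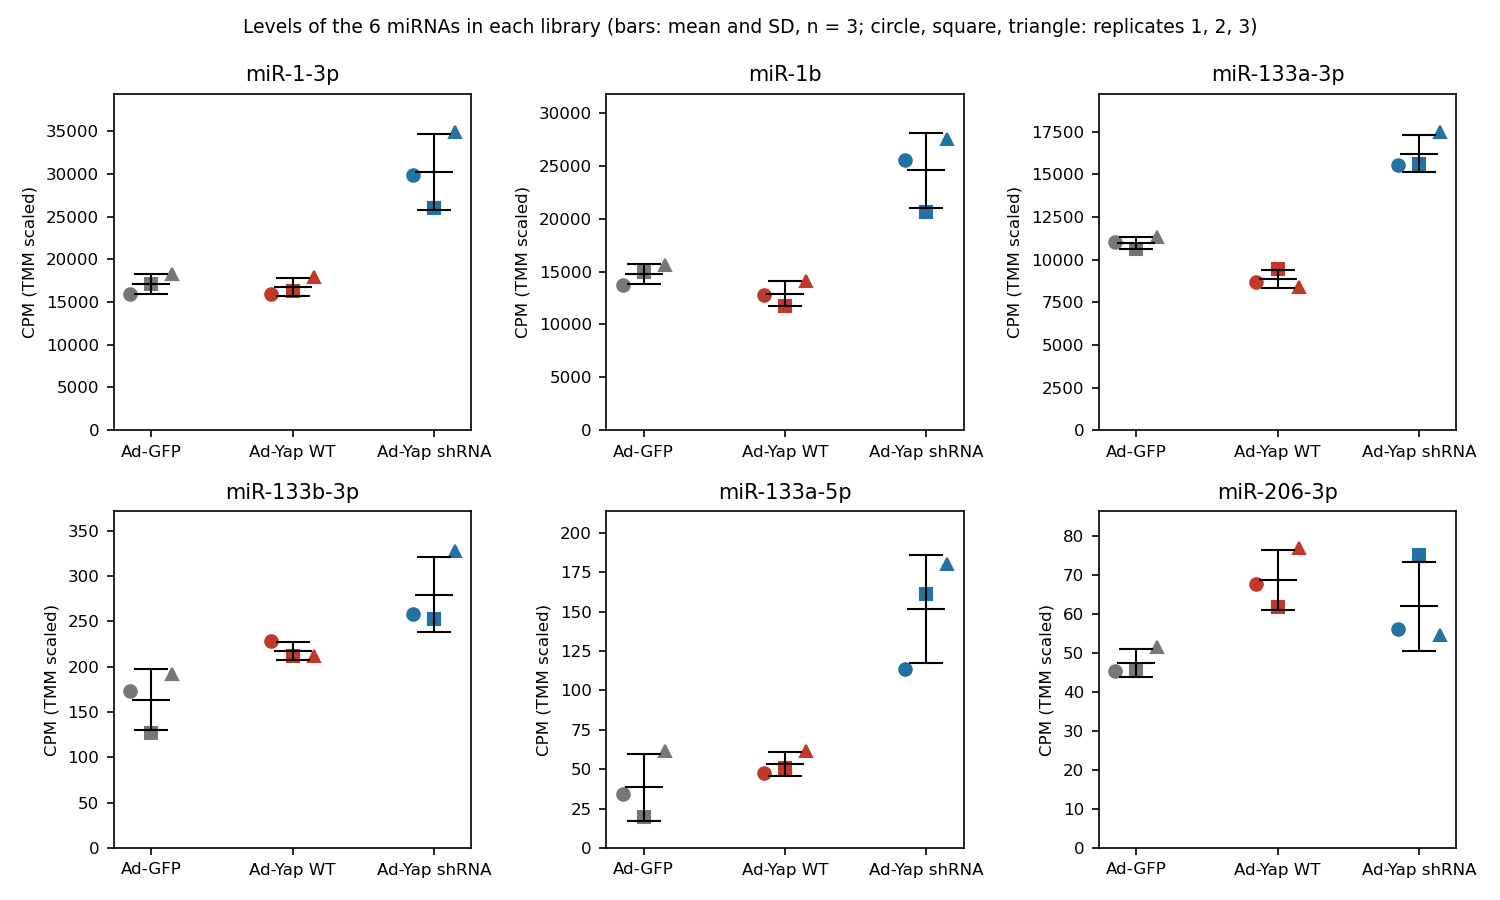
TMM scaled CPM of the 6 miRNAs in each of the 9 libraries, by virus group, with the mean and SD of 3 libraries; each panel has its own axis from 0. On this scale every Ad-Yap shRNA library lies above every Ad-GFP library in all 6 panels, and miR-133a-3p is lowest in Ad-Yap WT.

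miR-1 was lower with Yap overexpression than with Yap knock-down, and on the CPM scale it was the knock-down group that stood apart from control. Their summed counts were 132002, 142811 and 143231 in Ad-GFP, 95126, 48790 and 66337 in Ad-Yap WT, and 102703, 60272 and 71036 in Ad-Yap shRNA. As raw counts, both Yap groups lay below every control library and overlapped each other.

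Scaled by TMM, the sum stood at 29744, 32038 and 33906 CPM in Ad-GFP, at 28712, 28101 and 32042 CPM in Ad-Yap WT and at 55448, 46632 and 62412 CPM in Ad-Yap shRNA. Every knock-down library was above every other library, and the other groups overlapped. The log2 fold change of the sum was 0.77 with Ad-Yap shRNA against Ad-GFP (SE 0.12, edgeR adjusted p = 0.00177), -0.11 with Ad-Yap WT against Ad-GFP (SE 0.12, adjusted p = 0.528), and -0.88 for Ad-Yap WT against Ad-Yap shRNA (SE 0.12, adjusted p = 0.00157). miR-1-3p alone gave 0.82, -0.033 and -0.85, and miR-1b alone 0.73, -0.20 and -0.93, for the same 3 comparisons, with edgeR calls on the same side of the threshold as the sum.

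The rise of miR-1 with Ad-Yap shRNA depended on the scaling. Its sum was at 0.19 with library size only (adjusted p = 0.274) and at 0.13 after cyclic loess, which evens out fold changes that depend on abundance (limma adjusted p = 0.428). With the deposited library totals it fell by 1.42 on the log2 scale (edgeR adjusted p = 0.00372), while the median of all tested miRNAs was -2.15. With Ad-Yap WT against Ad-GFP, TMM was the only one of these 4 scalings in which the sum was not called lower: it was at -0.42 with library size only (edgeR adjusted p = 0.0486), at -0.46 after cyclic loess (limma adjusted p = 0.027) and at -1.41 with the deposited totals (edgeR adjusted p = 0.0161; median of all tested miRNAs -1.26). The lower level in Ad-Yap WT than in Ad-Yap shRNA was called in 3 of these 4 scalings, at -0.60 with library size only (adjusted p = 0.0127) and -0.58 after cyclic loess (adjusted p = 0.00812). With the deposited totals that difference was 0.015 (adjusted p = 0.976), beside a median of 0.85 over all tested miRNAs. RLE and upper quartile factors, which like TMM set 1 factor per library, gave values near those of TMM. Against Ad-GFP the sum was at 0.70 and 0.78 with Ad-Yap shRNA (edgeR adjusted p = 0.00392 and 0.00654). With Ad-Yap WT it was at -0.14 and -0.15 and not called (edgeR adjusted p = 0.458 and 0.544), and 18 of all 21 alternatives left it uncalled.

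**Figure D2:**
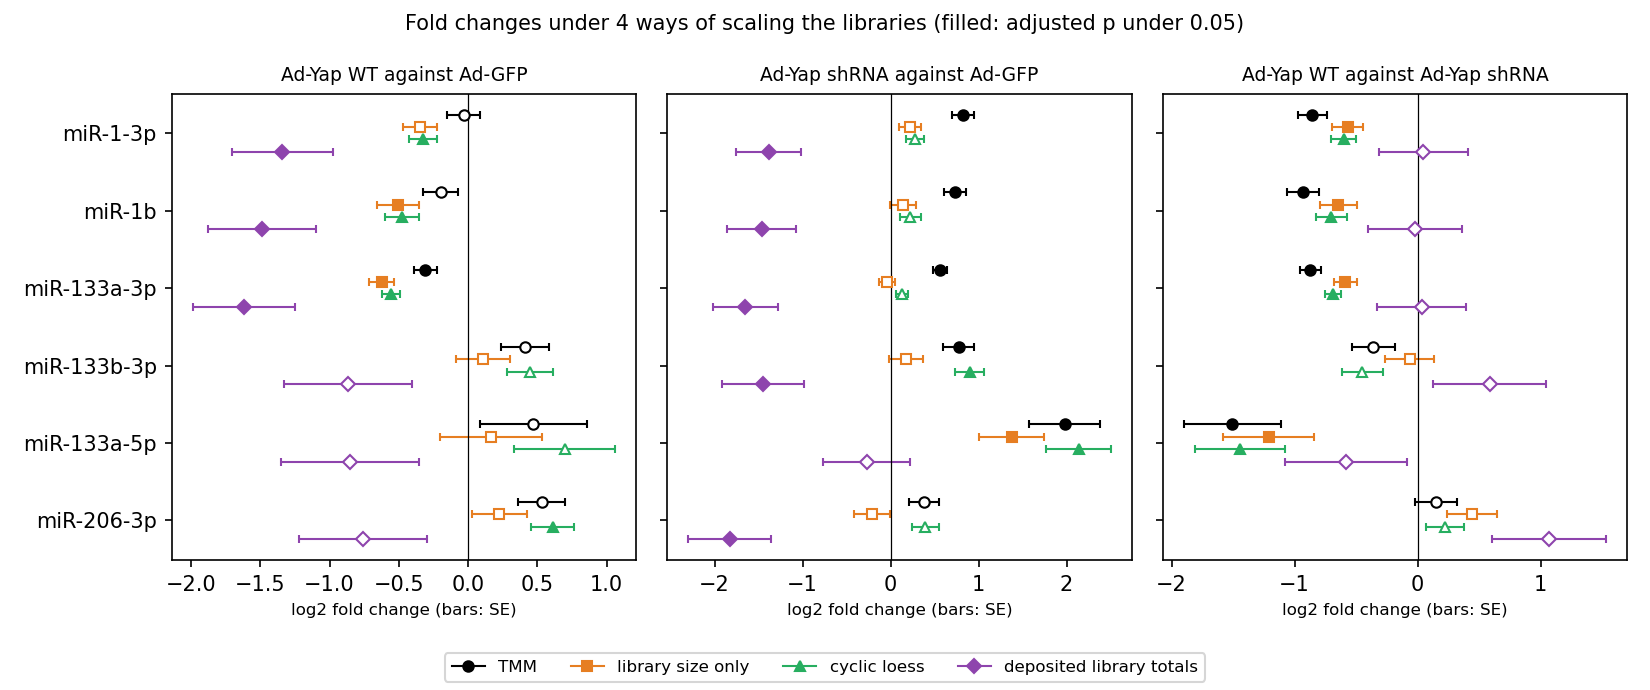
log2 fold change and SE of each miRNA in 3 comparisons under TMM, library size only, cyclic loess and the deposited library totals; filled symbols passed the adjusted p threshold. With Ad-Yap shRNA against Ad-GFP the miR-1 and miR-133a-3p values run from above 0 with TMM to below -1 with the deposited totals, and in the comparison of Ad-Yap WT with Ad-Yap shRNA only the deposited totals bring them to about 0.

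Between replicates of a Yap group the miR-1 count was set against depth. Ad-Yap WT replicate 1 held 1.53 times the miRNA reads of replicate 2 and 1.95 times its miR-1 count, and Ad-Yap shRNA replicate 1 held 1.30 times the reads of its replicate 2 and 1.70 times the count. miR-22-3p, the most abundant entry, differed by only 1.06 and 1.05 times between the same libraries. Replicate 1 against replicate 3 came closer to depth, at 1.37 times the reads and 1.43 times the count with Ad-Yap WT, and 1.41 and 1.45 times with Ad-Yap shRNA. The miR-1 CPM was highest in replicate 3 and lowest in replicate 2 of both Yap groups; replicate 3 was the shallowest library of the Ad-Yap shRNA group, whereas replicate 2 was the shallowest of the Ad-Yap WT group.

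In the deposited RPM values, which use the library totals, the summed miR-1 stood at 9977 ± 384 RPM in Ad-GFP, 3762 ± 1768 RPM with Ad-Yap WT and 3723 ± 1014 RPM with Ad-Yap shRNA (SD, n = 3). On this scale both Yap groups lay below control without overlap and their means were nearly equal.

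**Figure D3:**
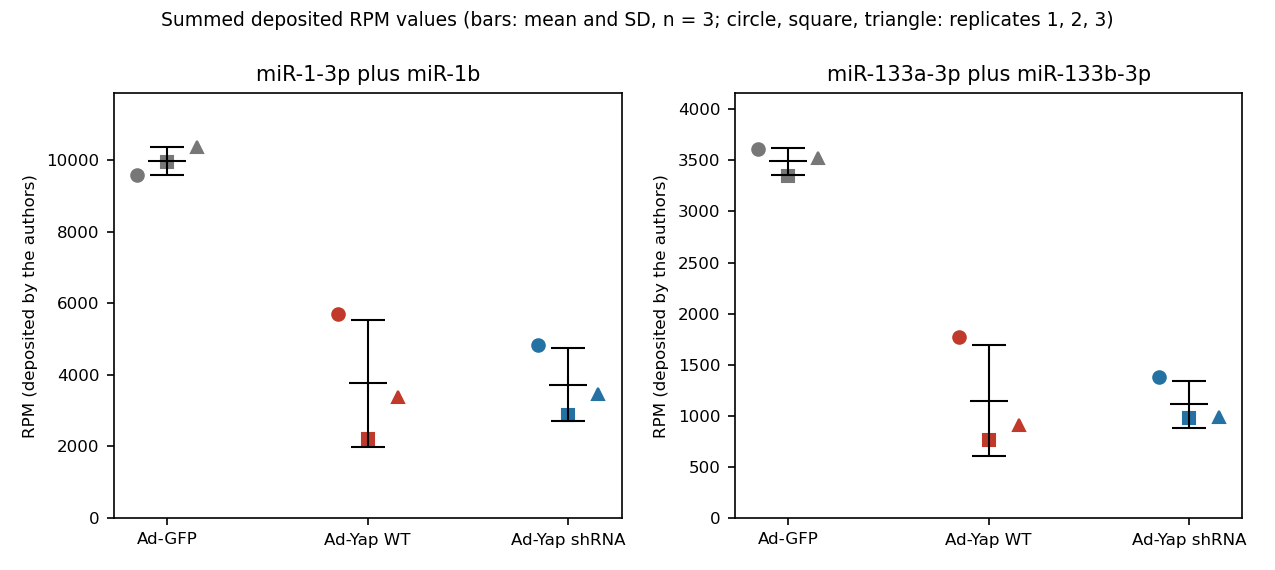
Deposited RPM of summed miR-1 and of summed miR-133-3p in each library, with mean and SD of 3 libraries. Both Yap groups lie below the 3 Ad-GFP libraries, at means of 3762 and 3723 RPM for miR-1 and 1148 and 1114 RPM for miR-133-3p.

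With TMM scaling miR-133a-3p was the only member called lower with Yap overexpression than in control. Its counts were 48852, 47363 and 47813 in Ad-GFP, 28831, 16447 and 17411 in Ad-Yap WT, and 28755, 20192 and 19896 in Ad-Yap shRNA. After TMM scaling these were 11008, 10626 and 11318 CPM, 8702, 9473 and 8410 CPM, and 15524, 15622 and 17481 CPM. The 3 groups did not overlap, with Ad-Yap WT lowest and Ad-Yap shRNA highest.

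The log2 fold change of miR-133a-3p was -0.31 with Ad-Yap WT against Ad-GFP (SE 0.083, edgeR adjusted p = 0.031), 0.56 with Ad-Yap shRNA against Ad-GFP (SE 0.084, adjusted p = 0.00158) and -0.87 between the Yap groups (SE 0.084, adjusted p = 0.000344). The fall with Ad-Yap WT kept its sign under all 21 alternatives and was also called with library size only (-0.62, adjusted p = 0.0051), cyclic loess (-0.56, limma adjusted p = 0.00125) and the deposited totals (-1.62, edgeR adjusted p = 0.0161). Its call ended in 5 of 9 runs without 1 library, namely Ad-GFP replicate 1, 2 or 3 (adjusted p = 0.0859, 0.0615 and 0.0962) or Ad-Yap WT replicate 1 or 3 (0.0544 and 0.102). The rise with Ad-Yap shRNA kept its call with RLE and upper quartile factors (0.48 and 0.55, edgeR adjusted p = 0.00248 and 0.00524). It was at -0.037 with library size only (adjusted p = 0.756), at 0.13 after cyclic loess (limma adjusted p = 0.167) and at -1.65 with the deposited totals (edgeR adjusted p = 0.00167). The difference between the Yap groups was at -0.59, -0.69 and 0.032 in the same order of scalings, and its call was lost with the deposited totals (adjusted p = 0.956).

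The other arm, miR-133a-5p, was far less abundant, with 166 ± 87 reads in Ad-GFP, 124.3 ± 35 reads in Ad-Yap WT, and 207.7 ± 2.5 reads in Ad-Yap shRNA (SD, n = 3). The control libraries, which have nearly the same depth, ran from 88 to 260 reads, and in Ad-Yap shRNA the count stayed level while depth did not. The scaled values were 34.0, 19.7 and 61.5 CPM, 47.4, 50.7 and 61.8 CPM, and 113, 161 and 180.1 CPM. It had the largest fold change of the members, 1.98 with Ad-Yap shRNA against Ad-GFP (SE 0.40, edgeR adjusted p = 0.0056), and was at 0.47 with Ad-Yap WT (SE 0.39, adjusted p = 0.41).

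The rise of miR-133a-5p with Ad-Yap shRNA was also called with library size only (1.38, adjusted p = 0.0156) and after cyclic loess (2.14, limma adjusted p = 0.00257), but with the deposited totals it was at -0.27 (edgeR adjusted p = 0.61). Between the Yap groups it was at -1.51 (SE 0.40, adjusted p = 0.0255), at -1.21 with library size only (adjusted p = 0.0441) and at -1.44 after cyclic loess (limma adjusted p = 0.0202). With the deposited totals it was at -0.58 and not called (edgeR adjusted p = 0.378). The TMM call ended without Ad-Yap WT replicate 1 or 2 (adjusted p = 0.0832 or 0.0607). It also ended when replicate 2 or 3 of Ad-Yap shRNA was left out (0.0544 and 0.0596).

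miR-133b-3p, which shares its seed with miR-133a-3p, had 768, 563 and 810 reads in Ad-GFP, 758, 367 and 439 in Ad-Yap WT, and 478, 327 and 373 in Ad-Yap shRNA. These came to 173, 126.3 and 192 CPM, 229, 211 and 212 CPM, and 258, 253 and 328 CPM. The 3 groups did not overlap, and control was lowest, unlike for miR-133a-3p. It rose by 0.77 with Ad-Yap shRNA against Ad-GFP (SE 0.18, edgeR adjusted p = 0.00929), and was at 0.41 with Ad-Yap WT (SE 0.17, adjusted p = 0.124) and at -0.36 between the Yap groups (SE 0.18, adjusted p = 0.161). The rise passed after cyclic loess (0.90, limma adjusted p = 0.00367) but not with library size only (0.17, edgeR adjusted p = 0.487), and turned to -1.45 with the deposited totals (adjusted p = 0.0122). Its difference between the Yap groups missed the threshold in all 4 scalings, at -0.066 with library size only, -0.45 after cyclic loess and 0.58 with the deposited totals.

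Summed over both near copies, miR-133-3p followed miR-133a-3p, which supplied most of its reads. It gave -0.30 with Ad-Yap WT against Ad-GFP (SE 0.084, edgeR adjusted p = 0.0362), 0.57 with Ad-Yap shRNA against Ad-GFP (SE 0.084, adjusted p = 0.00157) and -0.86 between the Yap groups (SE 0.084, adjusted p = 0.000353). The call with Ad-Yap WT against Ad-GFP ended in 6 of 9 runs without 1 library: any Ad-GFP replicate (adjusted p from 0.07 to 0.108), Ad-Yap WT replicate 1 or 3 (0.0708 and 0.114) or Ad-Yap shRNA replicate 2 (0.0519). It also ended with upper quartile factors (0.0507) and with no filter on low counts (0.056).

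miR-206-3p, the skeletal muscle member of the miR-1 seed family, was read 201, 203 and 218 times in Ad-GFP, 224, 107 and 159 times in Ad-Yap WT, and 104, 97 and 62 times in Ad-Yap shRNA. On the CPM scale it stood at 45.3, 45.5 and 51.6, then 67.6, 61.6 and 76.8, then 56.1, 75.0 and 54.5. Both Yap groups lay above control and overlapped each other. It missed the threshold in all 3 comparisons, at 0.53 with Ad-Yap WT (SE 0.17, edgeR adjusted p = 0.0532), 0.38 with Ad-Yap shRNA (SE 0.17, adjusted p = 0.109) and 0.15 between them (SE 0.17, adjusted p = 0.539). With the deposited totals it was called lower with Ad-Yap shRNA (log2 fold change -1.83, edgeR adjusted p = 0.00368).

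Over the 6 members, 5 rose and none fell with Ad-Yap shRNA against Ad-GFP, where 24% of all tested miRNAs were called higher and 17.8% lower. All 6 lay above control without overlap, as did 30.9% of all tested miRNAs. Their median log2 fold change was 0.75, beside 0.04 over all tested miRNAs. The 5 rises are not independent, because miR-1-3p and miR-1b could share reads, as could miR-133a-3p and miR-133b-3p. The count of rises stayed at 5 with RLE and upper quartile factors, where 21.6% and 22.1% of all tested miRNAs were called higher. It was 1 with library size only (miR-133a-5p), where 11.4% of all tested miRNAs were called higher. After cyclic loess it was 2 (miR-133a-5p and miR-133b-3p), where 22.3% were. No member was called lower under any of these.

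With Ad-Yap WT against Ad-GFP, 1 member fell and none rose, where 9.67% of all tested miRNAs were called lower and 15.4% higher. Without overlap, 1 member lay below and 2 above control, beside 22.3% and 25% of all tested miRNAs, so these counts are near the background. The members' median was 0.19, beside 0.03 over all. For Ad-Yap WT against Ad-Yap shRNA, 4 members were called lower and none higher, where 14.3% and 14.2% of all tested miRNAs were, and 5 lay lower without overlap, beside 23% of all. Their median was -0.86, beside -0.04. With library size only the members called lower were 2 with Ad-Yap WT against Ad-GFP (background 18%) and 4 between the Yap groups (background 6.56%), and after cyclic loess 3 (background 11.7%) and 4 (background 15.5%). After cyclic loess 1 member, miR-206-3p, was called higher with Ad-Yap WT against Ad-GFP, where 13.3% of all tested miRNAs were. The first 2 comparisons share the Ad-GFP libraries.

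With the deposited totals 5 members were called lower with Ad-Yap shRNA against Ad-GFP and 3 with Ad-Yap WT against Ad-GFP, where 82.7% and 53.9% of all tested miRNAs were. The medians under these totals were -2.15 and -1.26 over all tested miRNAs, beside -1.46 and -1.10 over the members.

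Ratios within a library remove the scaling, but not the difference in depth between the groups. The 24 differences of log2 ratios tested (8 ratios in 3 comparisons) had two-sided exact permutation p-values of at least 0.1, the smallest possible, and adjusted values of at least 0.185, so none could pass, and the ratios are described by their values and overlap. There were 2.66, 2.98 and 2.95 miR-1 reads per miR-133-3p read in Ad-GFP, 3.21, 2.90 and 3.72 in Ad-Yap WT, and 3.51, 2.94 and 3.50 in Ad-Yap shRNA. The groups overlapped, with differences of log2 means of 0.19 and 0.21 for Ad-Yap WT and Ad-Yap shRNA against Ad-GFP (exact permutation p = 0.3 for each) and -0.02 between them (exact permutation p = 0.9).

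miR-1b stood at 86.3, 87.8 and 85.3% of the miR-1-3p count in Ad-GFP, 79.9, 72.3 and 78.9% in Ad-Yap WT, and 85.4, 79.4 and 79.0% in Ad-Yap shRNA. Every Ad-Yap WT library was below every control library (difference of log2 ratios -0.17, exact permutation p = 0.1).

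miR-133b-3p stood at 1.57, 1.19 and 1.69% of miR-133a-3p in Ad-GFP, 2.63, 2.23 and 2.52% in Ad-Yap WT, and 1.66, 1.62 and 1.87% in Ad-Yap shRNA. The Ad-Yap WT libraries were above all others, by 0.74 on the log2 scale against Ad-GFP and 0.52 against Ad-Yap shRNA (exact permutation p = 0.1 for each).

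miR-206-3p, which lies beside miR-133b, was set against its own seed mates and stood at 0.152, 0.142 and 0.152% of summed miR-1 in Ad-GFP, 0.235, 0.219 and 0.240% in Ad-Yap WT, and 0.101, 0.161 and 0.0873% in Ad-Yap shRNA. Ad-Yap WT was above all other libraries, by 0.64 and 1.04 on the log2 scale (exact permutation p = 0.1 for each), and Ad-Yap shRNA and Ad-GFP overlapped. In Ad-Yap WT, the entries of both miRNAs of the chromosome 9 pair thus had higher counts relative to their counterparts than in any library of the other groups. For miR-133b-3p this rests on the uncertain split from miR-133a-3p, which differs only at the last base. For miR-206-3p it rests on 62 to 224 reads per library. The summed miR-1 count was 417 to 1146 times as high, and how reads matching both were assigned is not stated.

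The arms of miR-133a also differed in proportion. miR-133a-5p stood at 0.309, 0.186 and 0.544% of miR-133a-3p in Ad-GFP, 0.545, 0.535 and 0.735% in Ad-Yap WT, and 0.730, 1.03 and 1.03% in Ad-Yap shRNA. Every Ad-Yap shRNA library was above every control library, by 1.54 on the log2 scale (exact permutation p = 0.1), while Ad-Yap WT overlapped both. The control libraries were also the deepest, so virus group and depth cannot be told apart in this ratio. Within Ad-Yap shRNA the deepest library, replicate 1, had the lowest ratio. Within Ad-Yap WT the ratio did not follow depth, and control libraries of nearly equal depth ran from 0.186 to 0.544%.

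**Figure D4:**
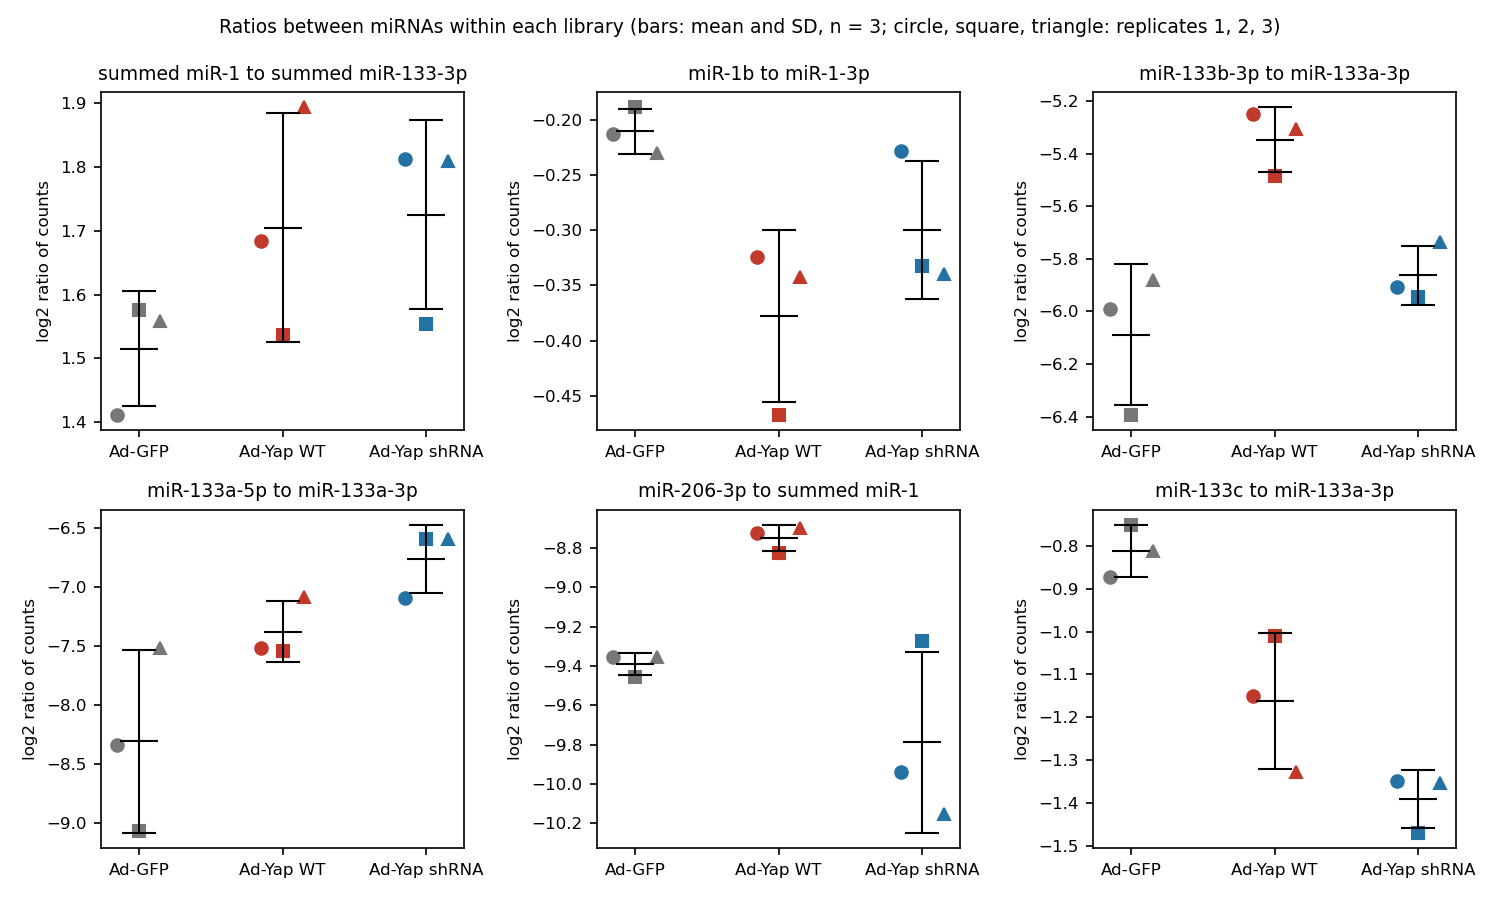
log2 ratios of counts within each library for 6 pairs of miRNAs, by virus group, with mean and SD of 3 libraries; axes do not start at 0. The Ad-Yap WT libraries lie above all others in the ratios of miR-133b-3p to miR-133a-3p and of miR-206-3p to summed miR-1, and the ratio of miR-133c to miR-133a-3p is highest in Ad-GFP.

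The table also held miR-133c, annotated on the opposite strand of the miR-133a hairpin (plus strand of chr18:2157886-2157906 in GRCr8), and chosen for description by the rule that took every other miR-133 entry. Its sequence is shown because all 21 bases are the reverse complement of miR-133a-3p, in capitals throughout.
miR-133c: CAGCUGGUUGAAGGGGACCAA

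The entry rno-miR-133c was abundant, with 26668, 28125 and 27209 reads in Ad-GFP, 12991, 8164 and 6939 in Ad-Yap WT, and 11283, 7295 and 7791 in Ad-Yap shRNA. The strand setting of the counting is not given, so reads of miR-133a-3p and of its antisense partner cannot be told apart. Summed miR-133-3p did not include rno-miR-133c and shares this uncertainty. The rno-miR-133c count was 54.6, 59.4 and 56.9% of that of miR-133a-3p in Ad-GFP, 45.1, 49.6 and 39.9% in Ad-Yap WT, and 39.2, 36.1 and 39.2% in Ad-Yap shRNA, and the 3 groups did not overlap. This ratio was chosen after its values were seen. On the CPM scale rno-miR-133c fell with Ad-Yap WT (log2 fold change -0.65, edgeR SE 0.13, adjusted p = 0.0123) and was at -0.01 with Ad-Yap shRNA (SE 0.13, adjusted p = 0.947). With library size only it was at -0.96 (adjusted p = 0.0051) and -0.61 (adjusted p = 0.00623), after cyclic loess at -0.84 (limma adjusted p = 0.00376) and -0.30 (adjusted p = 0.1), and with the deposited totals at -1.97 (edgeR adjusted p = 0.0161) and -2.22 (adjusted p = 0.000496).

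Among the other striated muscle miRNAs, 7 entries of miR-208a, miR-208b, miR-499 and miR-486 were tested. With Ad-Yap shRNA against Ad-GFP, 2 of 7 rose and none fell (median 0.39), near the 24% called higher over all tested miRNAs: rno-miR-499-5p, encoded within a myosin gene, by 1.24 (edgeR adjusted p = 0.000445), and rno-miR-486 by 0.54 (adjusted p = 0.0023). With Ad-Yap WT against Ad-GFP, 2 of 7 fell and none rose (median 0.05), where 9.67% of all were called lower: rno-miR-208a-5p, from an intron of the alpha-myosin gene, at -0.49 (edgeR adjusted p = 0.0236), and rno-miR-208b-5p at -0.82 (adjusted p = 0.0474). Between the Yap groups 4 of 7 were lower in Ad-Yap WT and none higher (median -0.56), where 14.3% of all were called lower. These calls too depended on the scaling: with the deposited totals both rises became falls (rno-miR-499-5p at -0.98, adjusted p = 0.0104; rno-miR-486 at -1.67, adjusted p = 0.00366) and the 4 differences between the Yap groups were not called. With library size only rno-miR-486 was at -0.057 with Ad-Yap shRNA against Ad-GFP (adjusted p = 0.742), its difference and that of rno-miR-208b-5p between the Yap groups were not called (adjusted p = 0.173 and 0.145), and after cyclic loess the fall of rno-miR-208b-5p with Ad-Yap WT was not called (limma adjusted p = 0.0557).

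Relative to miR-499-5p, miR-1 was lower in both Yap groups. There were 1.54, 1.61 and 1.67 miR-1 reads per miR-499-5p read in Ad-GFP, 1.34, 0.966 and 1.15 in Ad-Yap WT, and 1.33, 0.983 and 1.21 in Ad-Yap shRNA, so that control lay above both Yap groups without overlap (exact permutation p = 0.1 for each). The same held for miR-133a-3p, at 55.4 ± 1.8, 34.4 ± 5.4 and 34.7 ± 2.2% of the miR-499-5p count (SD, n = 3; exact permutation p = 0.1 for each Yap group). In both ratios the Yap groups overlapped each other. The control libraries were also the deepest, so virus group and depth cannot be told apart in these ratios. Within Ad-Yap WT the miR-1 ratio followed depth, with replicates 1, 3 and 2 in falling order of both. Within Ad-Yap shRNA it did not, as the shallowest library, replicate 3, lay in the middle. These ratios were chosen after the values were seen.

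Markers of other cell types moved between the groups as well, and in bulk cultures fewer cells of a type and less RNA per cell cannot be told apart. All 4 fibroblast and mesenchymal entries (miR-199a and miR-214) summed to 14153 to 16497 CPM in Ad-GFP, 13182 to 13837 CPM with Ad-Yap WT and 5137 to 5986 CPM with Ad-Yap shRNA, with 2 of 3 tested falling with Ad-Yap shRNA against Ad-GFP. With Ad-Yap WT against Ad-GFP 1 of these 3 fell, and 2 were higher in Ad-Yap WT than in Ad-Yap shRNA. The striated muscle list summed to 23756 to 24746, 24707 to 32337 and 46271 to 57641 CPM in the same order of groups. Most of that sum was miR-499-5p, whose group means were 19822, 26190 and 46924 CPM in that order. Among the 7 muscle entries, only 2 rose and none fell in the knock-down group relative to control. Both endothelial entries summed to 3581 to 4480, 5002 to 5852 and 6172 to 7429 CPM, with both rising in each Yap group. The smooth muscle pair summed to 13866 to 14692, 13061 to 14790 and 16454 to 21834 CPM; with Ad-Yap shRNA against Ad-GFP miR-145-5p rose and miR-143-3p fell, and with Ad-Yap WT miR-143-3p fell. The blood, neuronal and epithelial lists summed to at most 997, 1142 and 32.9 CPM in any library. No listed marker was at 0 in all libraries. The part of cell composition in the myomiR differences was not tested.

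The miRNAs most like the myomiRs over the 9 libraries were sought among 354 annotated miRNAs with at least 10 CPM, by Pearson's r of log2(CPM + 1), as a description. Summed miR-1 was most like miR-486 (r = 0.96), miR-335 (0.95) and miR-181c-5p (0.94). miR-133a-3p was most like miR-505-3p (0.97), miR-181c-5p (0.97) and miR-9a-3p (0.96). miR-133a-5p was most like 3 members of the miR-30 family, miR-30c-5p (0.97), miR-30a-5p (0.95) and miR-30e-5p (0.95). All 9 points share the 3 group means, the library depths and the scaling factors.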

How the data were processed

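Small RNA of 9 libraries was sequenced with single-end 50 base reads after a small RNA library kit with PCR, per the labels' protocols. Bowtie2, DESeq2 and the build rn6 are listed, without versions or roles, per the submitters' processing notes. The table holds read counts per miRNA, deposited by the authors as whole numbers, beside deposited RPM, for which the authors used a larger library total of unstated content. Group means of the counts, deposited by the authors and treated as a score because they are not whole numbers, were not used. Counts were tested with edgeR 4.0.16 (R 4.3.3): filterByExpr, TMM, and glmQLFit and glmQLFTest over all 9 libraries with 1 mean per group; the common biological CV was 45.1%. Standard errors were derived from each fold change and its F statistic. Each sum of near copies replaced its entries in a separate fit of the whole table. Within-library ratios used counts plus 0.5 and exact permutation tests. Loess and voom fits used limma 3.58.1, and DESeq2 1.42.0 was an alternative.

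The fit was tested on simulated data. PCR reads are not independent molecules. The members, lists and ratios were chosen with earlier results of these data known. Named were the 6 members, their sums, every other entry of the striated muscle miRNAs, and the 3 miRNAs nearest in pattern to miR-1, miR-133a-3p and miR-133a-5p.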

Additional observations from a re-analysis of the deposited data

How the results depend on the processing

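Of 504 values of the members and their sums under alternatives (21 each), 440 kept their direction and side of the threshold, 30 lost a call, 13 gained one and 21 changed sign. Most sign changes came from the deposited library totals, which shift all miRNAs of a library. With them the values were, in Ad-Yap WT relative to Ad-GFP, -0.85 for miR-133a-5p, -0.87 for miR-133b-3p and -0.76 for miR-206-3p; for Ad-Yap shRNA against Ad-GFP, -1.39 for miR-1-3p, -1.46 for miR-1b, -1.42 for their sum, -1.65 for miR-133a-3p, -1.65 for summed miR-133-3p, -1.45 for miR-133b-3p, -0.27 for miR-133a-5p and -1.83 for miR-206-3p; and between the Yap groups 0.046 for miR-1-3p, 0.015 for summed miR-1, 0.032 for miR-133a-3p, 0.043 for summed miR-133-3p and 0.58 for miR-133b-3p. With library size only, Ad-Yap shRNA against Ad-GFP gave -0.037 for miR-133a-3p, -0.033 for summed miR-133-3p and -0.21 for miR-206-3p. miR-1-3p with Ad-Yap WT against Ad-GFP crossed 0 without Ad-GFP replicate 3 (0.018) and without Ad-Yap WT replicate 1 (0.0028), in a range from -0.089 to 0.018.

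miR-206-3p passed with Ad-Yap WT against Ad-GFP in 5 alternatives (adjusted p from 0.0243 to 0.0418), among them DESeq2, limma-voom and cyclic loess. Calls with Ad-Yap WT against Ad-GFP (89 higher and 56 lower) became 322 with the deposited totals (10 and 312) and 90 with no filter, split 51 and 104 with library size only, and ran from 71 to 148 without 1 library; those with Ad-Yap shRNA against Ad-GFP went from 242 (139 higher and 103 lower) to 493 with the totals (14 and 479), split 66 and 221 with library size only, and ran from 191 to 245 without 1 library. Between the Yap groups the split of 82 higher and 83 lower became 114 and 38 under library size alone and 110 and 8 under the totals. With the replicate block 132, 228 and 160 miRNAs were called in the 3 comparisons, and the fall of miR-133a-3p with Ad-Yap WT against Ad-GFP lost its call, as did that of summed miR-133-3p (adjusted p = 0.0564 and 0.0617), with no other call of a member changed. Deviations of same-numbered libraries over all tested miRNAs had no common direction (correlations from -0.34 to 0.34). With 3 libraries per group this cannot show whether the numbers pair libraries. The miR-1 CPM was lowest in replicate 2 and highest in replicate 3 of both Yap groups. The share of miRNA reads in the members became, over the deposited totals, lower in Ad-Yap shRNA than in Ad-GFP (-0.864 percentage points) and level between the Yap groups (0.0075, Ad-Yap WT minus Ad-Yap shRNA). Without 1 library, the differences between the Yap groups near 0 changed sign: summed miR-1 to miR-133-3p from -0.11 to 0.064, summed miR-1 to miR-499-5p from -0.15 to 0.087, and miR-133a-3p to miR-499-5p from -0.15 to 0.068. The cause of these shifts was not tested. Low counts limit miR-133a-5p and miR-206-3p, at most 260 and 224 reads per library.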
